A study of Oryctolagus cuniculus with 17 samples.

Results

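Interferon-stimulated genes were examined in the right lung of preterm rabbit pups kept in high oxygen. The list of human symbols held 39 entries that cover secreted factors, antiviral effectors, RNA sensors, transcription factors, regulators and antigen presentation, and 31 of them were found by their human gene name among the 13827 genes of the count table. All 31 had enough counts to be tested. IFIT1, IFIT5, IFI6, STAT2, IRF9, USP18 and ZBP1 were not found under these names and were not analysed here, and RIGI was present under its older symbol DDX58. Where a symbol had several rows, the row with the highest total was used, which concerned MX1 only, with totals of 99829 counts in the row used and 26542 in the other.

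The New Zealand White pups were taken from the doe by C-section at 28 days of gestation, housed in incubators and fed a milk replacer. Hyperoxia was 95% oxygen and normoxia 21% oxygen, and lungs were taken on day 3, 5 or 7. HT3 and HT7 are the hyperoxia groups of days 3 and 7 with 3 samples each, HT5 is the hyperoxia group of day 5 with 2 samples, and NT3, NT5 and NT7 are the normoxia groups with 3 samples each. Prematurity, feeding and housing were common to all 17 samples, so the labels set a hyperoxia group apart from its control by oxygen only, and no group compared here was born at term. Levels are normalised CPM, read counts scaled to library size with TMM factors, log2FC is the log2 ratio of hyperoxia to normoxia with its standard error (SE), and a gene passed where its edgeR quasi-likelihood p-value, adjusted over all 13142 genes tested, was under 0.05. The labels name replicates without saying what they are, and the study's text speaks of independent lung samples, so the p-values measure the spread between these samples.

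Interferons are secreted by cells that sense viral nucleic acid or damage, and bind receptors on neighbouring cells. Type I interferons act through the receptor chains IFNAR1 and IFNAR2, type III through IFNLR1 with IL10RB, and interferon gamma, made mainly by T and NK lymphocytes, through IFNGR1 and IFNGR2. The receptors activate JAK kinases, which phosphorylate transcription factors, and these switch on the interferon-stimulated genes. Their products block viral replication, sense foreign RNA, recruit lymphocytes and raise antigen presentation. Many of these genes have a low basal level in lung without infection.

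Several of these genes lie side by side on the OryCun2.0 assembly named in the submitters' processing notes. CMPK2 (scaffold GL018721, 3351965 to 3364626, reverse strand) and RSAD2 (3370545 to 3384058, forward strand) are separated by 5918 bases and point away from each other. IFI44 (chromosome 13, 86728323 to 86741472) and IFI44L (86746247 to 86771689) are both on the reverse strand, 4774 bases apart, and IFIT2 (chromosome 18, 37228300 to 37233847) and IFIT3 (37240984 to 37246056) are on the forward strand, 7136 bases apart. CXCL11, CXCL10 and CXCL9 follow each other on chromosome 15 with gaps of 23083 and 23162 bases, and DTX3L and PARP9 on chromosome 14 run in opposite directions 4389 bases apart. OAS2 shares its locus and its counts with RITA1, and TAP1 with PSMB8, so the values of these 2 genes may include reads of the other gene.

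Totals per sample ran from 13123731 to 18111086 counts when a locus with several genes was taken only once, and TMM factors were between 0.958 and 1.05. The lung origin was checked with SFTPC, a surfactant protein of alveolar type 2 cells, at 4033 to 12324 CPM, and with AGER, a marker of alveolar type 1 cells, at 669 to 4760 CPM over the 17 samples. Skeletal muscle markers stood apart in 2 samples, with a summed level of 417 CPM in replicate 2 of HT3 and 375 CPM in replicate 1 of HT5 against 57.8 to 115 CPM in the other 15. Most of the lower sums was MYLPF, at 53.9 to 108 CPM over the 17 samples. In replicate 3 of HT3, ACTA1 and MYH8 were at 16.9 and 15.2 CPM, against medians of 2.27 and 1.08 CPM. Heart muscle markers summed to 45.0, 44.1 and 28.3 CPM in replicate 2 of HT3, replicate 2 of NT3 and replicate 1 of HT5. The other samples had 2.31 to 8.63 CPM. RNA of a whole lung does not separate fewer cells of a type from less RNA per cell, which holds for every level below.

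No interferon-stimulated gene passed on day 3, 5 of 31 passed on day 5, and 6 of 31 passed on day 7. On day 5, DDX58, IFIT3, RSAD2 and SAMD9 were higher and CMPK2 was lower in hyperoxia, and all 5 calls were lost in a fit with the replicate number as a block. On day 7 all 6 were lower, namely CMPK2, IFI44, IFI44L, IRF1, IRF8 and XAF1. CMPK2 was the gene that passed on both days. None of the 31 reached the study's thresholds for a differentially expressed gene, an adjusted p under 0.01 with a log2FC above 2 or below -2, on any day, while 0.0533%, 1.58% and 4.59% of all genes tested did on days 3, 5 and 7.

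In edgeR the share of members that passed was below that of all genes on each day. On day 3, edgeR passed 1.03% of all genes tested, and 0 members in either direction, with 2 members (IRF8 and XAF1, both lower) at an unadjusted p under 0.05 (6.45%, against 15.3% of all genes). DESeq2 called 0 members on day 3, against 1.97% of all genes higher and 2.24% lower. On day 5, 31.3% of all genes passed against 16.1% of members, split into 15.9% higher against 12.9% of members and 15.4% lower against 3.23%. On day 7, 47.4% of all genes passed against 19.4% of members, with 23.7% of all genes lower against 19.4%, and 23.7% higher against 0 members. DESeq2 also found 0 members higher on day 7, against 22.8% of all genes, and 8 of the 30 members with an adjusted p lower (26.7%, against 23.4%).

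**Figure D1:**
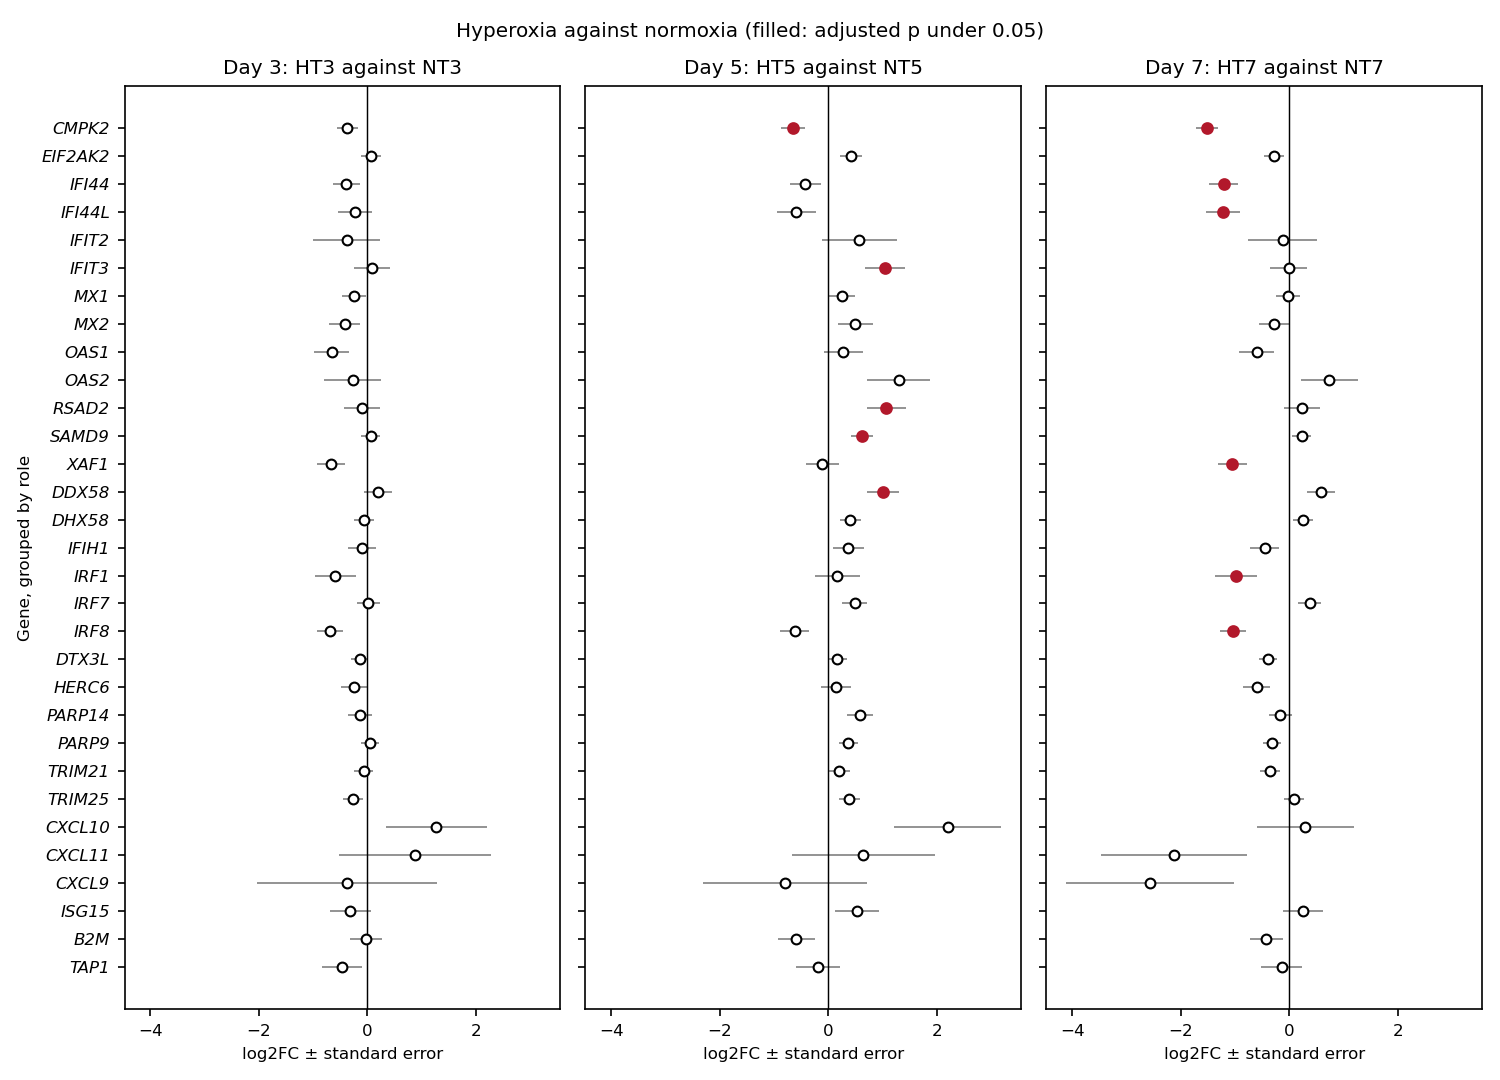
Log2FC of hyperoxia against normoxia with its standard error for the 31 interferon-stimulated genes, 1 panel per day. Filled points passed at an adjusted p under 0.05. No point is filled on day 3, 5 are filled on day 5 (4 to the right of 0) and 6 on day 7 (all to the left).

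Within each day, the log2FC of most members lay on 1 side of 0, although few passed. On day 3 the median log2FC was -0.23, from -0.69 for IRF8 to 1.27 for CXCL10, and 23 of 31 were below 0 (74.2%, against 49.9% of all genes). On day 5 the median was 0.37, from -0.79 for CXCL9 to 2.20 for CXCL10, and 23 of 31 were above 0 (74.2%, against 48.6% of all genes). On day 7 the median was -0.28, from -2.56 for CXCL9 to 0.74 for OAS2, and 22 of 31 were below 0 (71.0%, against 50.4% of all genes). The medians of all genes tested were 0.001, -0.019 and -0.008. The day 3 median rested on replicate 2 of HT3 and was 0.06 without it. The plot of log2FC by day shows this as a shift of the points to the left, right and left of 0.

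The samples themselves separated as follows. On day 3, 5 members (CMPK2, IFI44, IRF8, OAS1 and XAF1) had all HT3 samples below all NT3 samples (16.1%, against 13.9% of all genes), and 0 had all above, where all genes gave 12.8%. On day 5, both HT5 samples were above all NT5 samples for 15 members (48.4%, against 26.5% of all genes) and below for 3 (9.68%, against 29.2%). On day 7, HT7 was above NT7 without overlap for DDX58 and OAS2 (6.45%, against 27.3%) and below for 8 (25.8%, against 27.2%). A group of 2 samples separates from 3 more easily than a group of 3 does, which applies to day 5.

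In HT3, HT5 and NT7, most members were lowest in the same sample. Replicate 2 of HT3 was the lowest of its group for 29 of 31 members (93.5%, against 36.4% of all genes), and replicate 3 of HT3 the highest for 26 (83.9%, against 33.4%). Replicate 2 of NT7 was the lowest of its group for 28 members (90.3%, against 32.5%). Replicate 1 of HT5 exceeded replicate 2 for 29 (93.5%, against 51.2%). In HT7, replicate 1 was the lowest for 19 (61.3%, against 33.9%) and replicate 2 the highest for 21 (67.7%, against 36.9%). The members of NT5 did not share 1 order. Replicate 1 was the highest for 18 (58.1%, against 37.7%) and the lowest for 8, replicate 2 the highest for 12 and the lowest for 10, and replicate 3 the highest for 1 (3.23%, against 30.4%) and the lowest for 13. NT3 was also mixed, its replicates being the highest for 13, 8 and 10 members.

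In log2 CPM, the members of replicate 2 of HT3 were a median of 0.52 below their mean over all 17 samples (deviation -0.52), while those of the other HT3 samples deviated by 0.22 and 0.44. The 3 NT3 samples lay close together at 0.21, 0.23 and 0.26. In HT5 the deviations were 0.33 and 0.06, and in NT5 -0.03, -0.20 and -0.31. HT7 spanned -0.69 to 0.03 and NT7 spanned -0.29 to 0.19. The samples with the highest skeletal muscle sums were the lowest of HT3 and the higher of HT5. Replicate 3 of HT3, with smaller rises of ACTA1 and MYH8, was the highest of HT3. The part of these markers in the values was not tested.

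**Figure D2:**
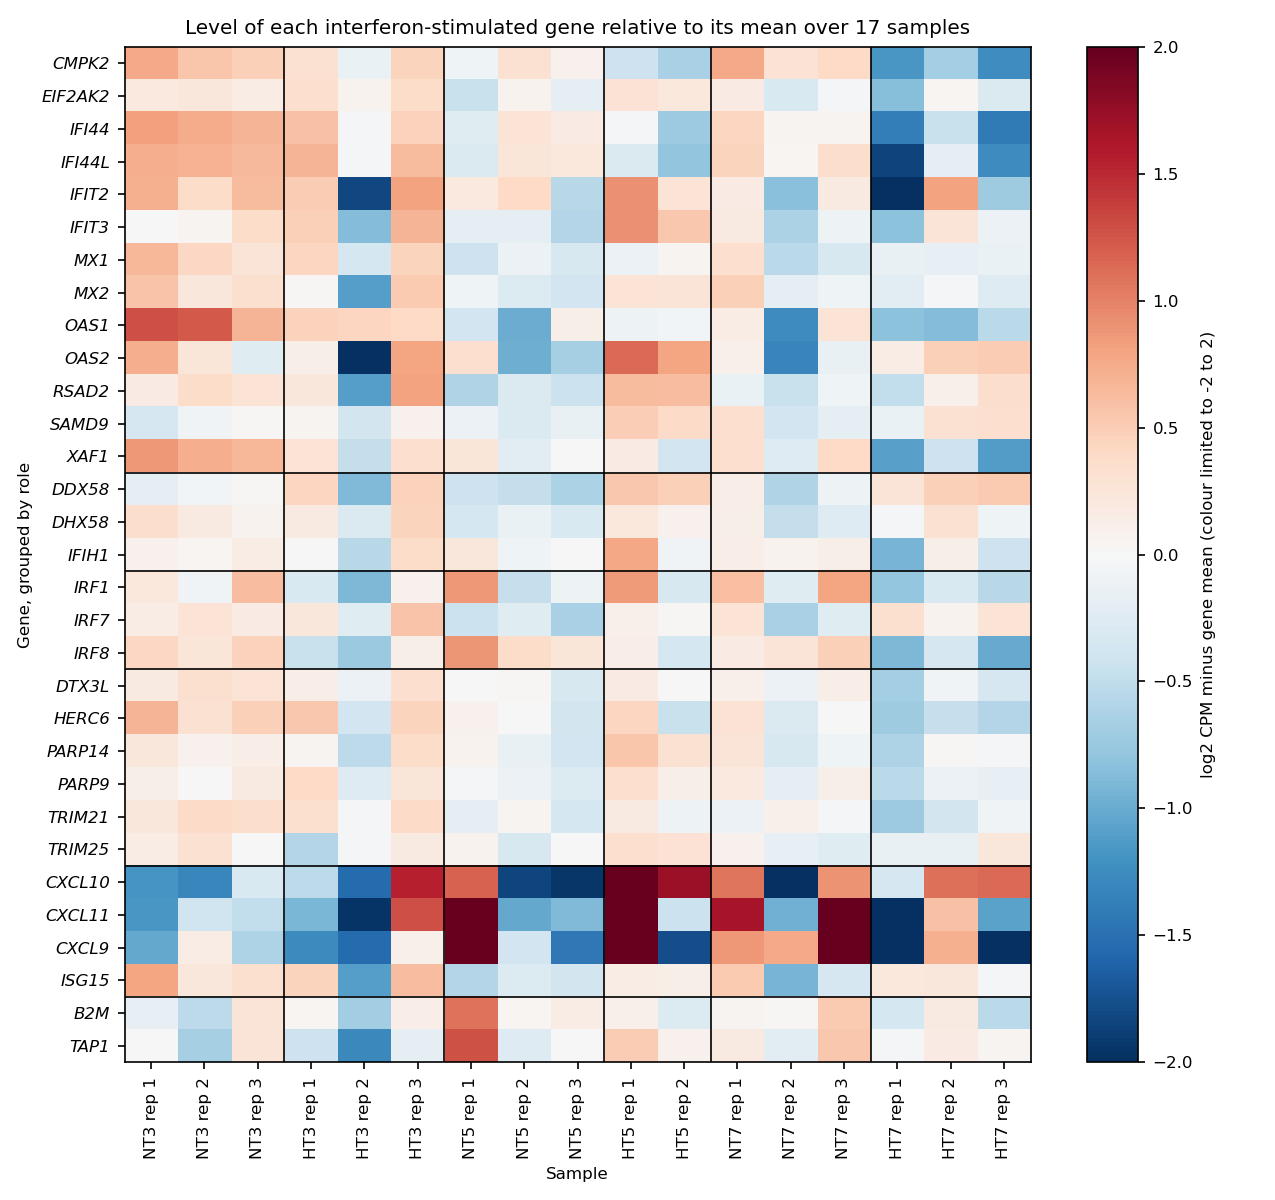
Heat map of the log2 CPM of each member (rows, grouped by role) in each of the 17 samples (columns), minus the gene's mean over all samples, with colours limited to -2 and 2. Replicate 2 of HT3 and replicate 1 of HT7 are low across most rows, and their median deviations are -0.52 and -0.69.

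Of the 13 antiviral effectors, which act on viral RNA, nucleotides or infected cells, 3 rose on day 5 (23.1%, against 15.9% of all genes) and 1 fell (7.69%, against 15.4%), and 4 fell on day 7 (30.8%, against 23.7%), with median log2FC of -0.27, 0.42 and -0.27 on days 3, 5 and 7. RSAD2 encodes viperin, which makes a nucleotide that ends viral RNA chains. Its levels were 15.8, 19.5 and 17.8 CPM in NT5 and 37.2 and 36.8 CPM in HT5, with no overlap. On day 3 they were 26.6, 30.9 and 28.8 CPM in NT3 and 28.0, 11.1 and 41.8 CPM in HT3, the hyperoxia samples lying on both sides. On day 7 they were 21.8, 17.5 and 22.6 CPM in NT7 and 17, 25.6 and 30.5 CPM in HT7, again overlapping. RSAD2 rose on day 5 by a log2FC of 1.07 ± 0.36 (SE, adjusted p = 0.0359), against -0.10 ± 0.33 on day 3 and 0.24 ± 0.33 on day 7, which did not pass.

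CMPK2, the neighbour of RSAD2 on the scaffold, encodes a mitochondrial nucleotide kinase. Its levels were 35.9, 31.2 and 29.8 CPM in NT3 and 26.4, 19.3 and 29.1 CPM in HT3. They were 20.1, 26.4 and 22.7 CPM in NT5 and 15.9 and 13.5 CPM in HT5. They were 35.9, 26.1 and 28.0 CPM in NT7 and 9.40, 13.3 and 8.96 CPM in HT7. On each day every hyperoxia sample was below every normoxia sample, with the narrowest gap on day 3 and the widest on day 7. The log2FC was -0.37 ± 0.19 on day 3 (adjusted p = 0.367), -0.65 ± 0.22 on day 5 (adjusted p = 0.035) and -1.51 ± 0.20 on day 7 (adjusted p = 3.34e-05). On day 5 the neighbours thus passed in opposite directions, RSAD2 higher and CMPK2 lower.

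IFIT3, whose product binds viral RNA together with other IFIT proteins, was at 48.5, 47.8 and 36.6 CPM in NT5 and at 103 and 79.8 CPM in HT5, without overlap. It was at 55.0, 57.2 and 70.4 CPM in NT3 and 76.6, 30.1 and 87.9 CPM in HT3. It was at 62.0, 35.3 and 51.0 CPM in NT7 and 31.1, 65.9 and 50.7 CPM in HT7. Samples of days 3 and 7 overlapped, with HT3 wider than NT3. The log2FC was 1.05 ± 0.37 on day 5 (adjusted p = 0.0423), 0.09 ± 0.33 on day 3 and -0.01 ± 0.34 on day 7. Its neighbour IFIT2 ranged from 2.19 to 17.7 CPM over all samples and did not pass on any day, with a day 5 log2FC of 0.57 ± 0.69.

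SAMD9, a host factor that restricts poxviruses, was at 35.0, 31.1 and 34.0 CPM in NT5 and at 53.3 and 49.2 CPM in HT5. On day 3 it was at 30.0, 36.2 and 38.6 CPM in NT3 and 39.5, 29.5 and 40.3 CPM in HT3, and on day 7 at 47.6, 29.1 and 33.6 CPM in NT7 and 34.4, 46.8 and 47.8 CPM in HT7. The groups separated on day 5 and overlapped on days 3 and 7. The log2FC was 0.62 ± 0.20 on day 5 (adjusted p = 0.0313), 0.06 ± 0.18 on day 3 and 0.23 ± 0.18 on day 7.

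IFI44 and IFI44L, 2 related interferon-induced genes, fell on day 7. IFI44 was at 84.3, 65.0 and 65.0 CPM in NT7 and at 23.9, 45.6 and 23.3 CPM in HT7. IFI44L was at 83.7, 63.4 and 78.7 CPM in NT7 and at 17, 54.4 and 25.6 CPM in HT7. For both, all HT7 samples were below all NT7 samples, and replicate 2 of HT7 was the nearest to normoxia. The log2FC on day 7 was -1.21 ± 0.26 for IFI44 (adjusted p = 0.00147) and -1.22 ± 0.32 for IFI44L (adjusted p = 0.00606).

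On the earlier days neither gene passed. IFI44 was at 110, 105 and 100 CPM in NT3 and 93.6, 60.7 and 86.0 CPM in HT3, and at 52.7, 75.9 and 69.6 CPM in NT5 and 61.5 and 37.7 CPM in HT5. IFI44L was at 102, 99.5 and 96.4 CPM in NT3 and 99.1, 59.6 and 95.0 CPM in HT3, and at 50.5, 72.5 and 71.3 CPM in NT5 and 50.5 and 35.6 CPM in HT5. Hyperoxia was below normoxia without overlap for IFI44 on day 3 and, by less than the rounding, for IFI44L on day 5, and the other groups overlapped. The log2FC on days 3 and 5 was -0.39 ± 0.25 and -0.42 ± 0.29 for IFI44, and -0.23 ± 0.31 and -0.59 ± 0.36 for IFI44L.

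XAF1 encodes a factor that promotes apoptosis by binding the inhibitor XIAP. It was at 15.7, 14.3 and 13.7 CPM in NT3 and 10.4, 6.15 and 10.9 CPM in HT3. It was at 10.2, 7.45 and 8.53 CPM in NT5 and 9.63 and 6.60 CPM in HT5. It was at 10.9, 7.15 and 11.4 CPM in NT7 and 3.98, 6.41 and 3.89 CPM in HT7. Hyperoxia was below normoxia without overlap on days 3 and 7 but not on day 5. The log2FC was -0.67 ± 0.26 on day 3 (adjusted p = 0.23), -0.11 ± 0.30 on day 5 and -1.05 ± 0.27 on day 7 (adjusted p = 0.00532).

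The other antiviral effectors did not pass on any day with all samples in the fit. EIF2AK2, the RNA-activated kinase PKR, passed on day 7 without replicate 2 of HT7 (-0.50, adjusted p = 0.0352). MX1, a GTPase that traps viral nucleocapsids, was at 527, 444 and 397 CPM in NT3 and 447, 260 and 452 CPM in HT3. It was at 248, 305 and 266 CPM in NT5 and 305 and 346 CPM in HT5, and at 419, 229 and 266 CPM in NT7 and 300, 297 and 301 CPM in HT7. The HT5 samples were just above the NT5 samples, the nearest pair differing by less than the rounding, and HT7 lay within the NT7 range. The log2FC was -0.24 ± 0.22, 0.25 ± 0.24 and -0.02 ± 0.22 on days 3, 5 and 7.

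OAS1 makes a short nucleotide chain that activates the RNA-cutting enzyme RNase L. It was at 61.0, 58.3 and 39.9 CPM in NT3 and 34.4, 33.6 and 32.7 CPM in HT3. It was at 19.1, 12.4 and 26.9 CPM in NT5 and 23.2 and 24.1 CPM in HT5, and at 27.5, 10.3 and 30.0 CPM in NT7 and 14.1, 13.6 and 17.1 CPM in HT7. OAS1 was lower in every HT3 sample than in every NT3 sample, and the normoxia samples of days 5 and 7 spread around the hyperoxia ones. The log2FC was -0.66 ± 0.32 on day 3 (adjusted p = 0.336), 0.28 ± 0.36 on day 5 and -0.60 ± 0.32 on day 7 (adjusted p = 0.143), where it passed without replicate 2 of NT7 (-0.94, adjusted p = 0.00878). MX2, OAS2 and EIF2AK2 were above normoxia without overlap on day 5, with log2FC of 0.50 ± 0.32, 1.30 ± 0.58 and 0.42 ± 0.21 (adjusted p = 0.236, 0.099 and 0.13).

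**Figure D3:**
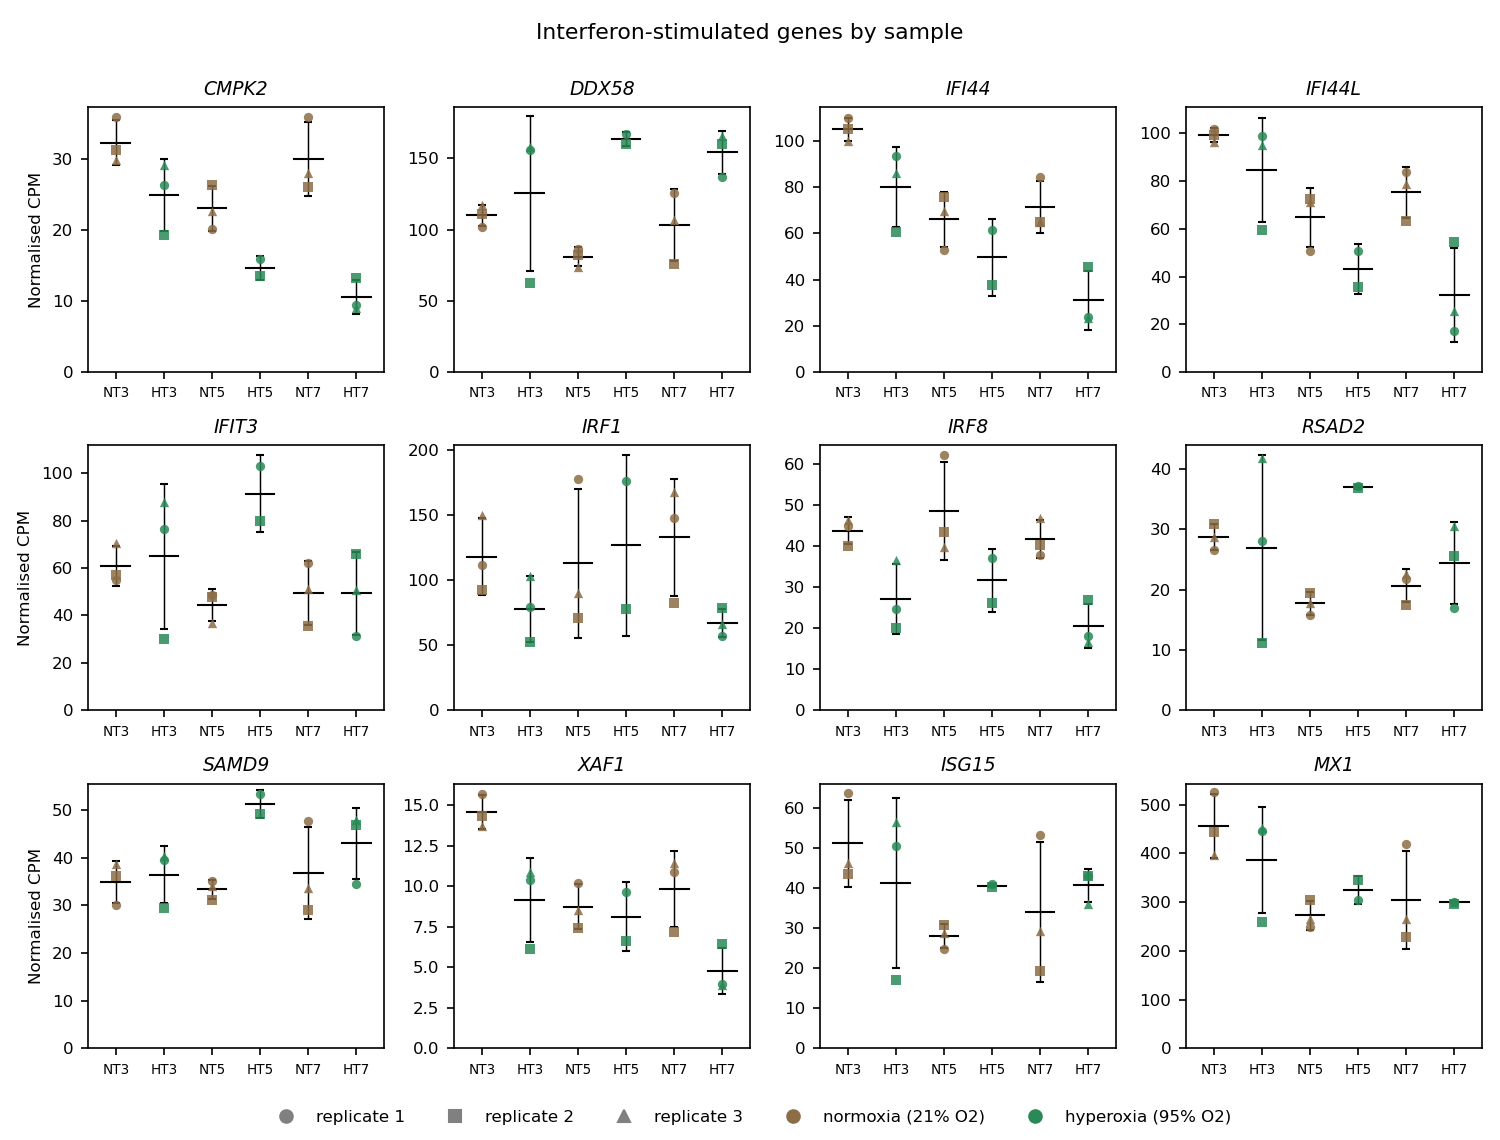
Normalised CPM per sample of the members that passed on at least 1 day, and of ISG15 and MX1, which did not pass on any day. Points are by replicate, with bars for group means and whiskers for the standard deviation (brown, normoxia, and green, hyperoxia). HT5 lies above NT5 for DDX58, IFIT3, RSAD2 and SAMD9, and HT7 lies below NT7 for CMPK2, IFI44, IFI44L, IRF1, IRF8 and XAF1.

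Of the 3 RNA sensors, DDX58 (RIG-I, which detects the ends of viral RNA) rose on day 5. It was at 86.6, 82.4 and 73.8 CPM in NT5 and at 167 and 160 CPM in HT5, the hyperoxia samples standing well clear. It was at 102, 111 and 117 CPM in NT3 and 156, 62.4 and 158 CPM in HT3, and at 126, 76.1 and 107 CPM in NT7 and 137, 160 and 166 CPM in HT7. In HT3, replicate 2 was below all NT3 samples and the others above, while HT7 was above NT7 without overlap. The log2FC was 0.19 ± 0.26 on day 3, 1.01 ± 0.29 on day 5 (adjusted p = 0.0156) and 0.58 ± 0.26 on day 7 (adjusted p = 0.0798). IFIH1 (MDA5, a sensor of long RNA) and DHX58 (LGP2, which modulates the others) did not pass, with day 5 log2FC of 0.37 ± 0.29 and 0.41 ± 0.20. IFIH1 passed on day 7 without replicate 2 of HT7 (-0.75, adjusted p = 0.0292).

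Of the 3 transcription factors, IRF1 and IRF8 fell on day 7 and IRF7 did not pass. IRF8, which also directs the development of monocytes, dendritic cells and B lymphocytes, was at 37.8, 40.3 and 46.8 CPM in NT7 and at 18.1, 26.7 and 16.7 CPM in HT7. It was at 44.9, 39.9 and 46.2 CPM in NT3 and 24.7, 20.0 and 36.5 CPM in HT3, and at 62.1, 43.4 and 39.8 CPM in NT5 and 37.0 and 26.2 CPM in HT5. Every hyperoxia sample was below every normoxia sample of its day, as for CMPK2. The log2FC was -0.69 ± 0.24 on day 3 (adjusted p = 0.175), -0.62 ± 0.27 on day 5 (adjusted p = 0.0895) and -1.03 ± 0.24 on day 7 (adjusted p = 0.00265).

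Markers of cells in which IRF8 is known to act were counted on the same day, when 23.7% of all genes were higher and 23.7% lower. On day 7, 6 of 7 B lymphocyte markers tested were lower (85.7%), with a summed level of 3.94 to 5.48 CPM in HT7 and 17 to 53.5 CPM in NT7. The largest part was CR2, at 2.83, 2.90 and 2.82 CPM in HT7 and 9.98, 17.7 and 43.9 CPM in NT7. The other markers were at 4.80 CPM or less in every sample. Of 8 dendritic cell markers, 2 were lower (25.0%, near the share of all genes) and 0 higher, with sums of 213 to 250 CPM in HT7 and 290 to 315 CPM in NT7. The 2 were ZBTB46 and TCF4. Most of these sums was TCF4, at 195, 227 and 197 CPM in HT7 and 262, 256 and 274 CPM in NT7. FLT3 did not pass, with HT7 above NT7 (5.48, 5.38 and 4.97 against 2.73, 3.24 and 4.30 CPM). Of 14 macrophage and monocyte markers, 3 were higher (21.4%) and 2 lower (14.3%), both below the shares of all genes. Their sum was higher in HT7, at 2279 to 2811 CPM against 1463 to 1762 CPM in NT7, through CD68. Without CD68, left out after its values were seen, the sums overlapped at 727 to 1100 CPM and 793 to 994 CPM. The part of these cells in the level of IRF8 was not tested.

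IRF1, a factor induced by interferon gamma above all, varied more. It was at 112, 92.2 and 150 CPM in NT3 and 79.0, 52.3 and 103 CPM in HT3. It was at 178, 70.6 and 90.4 CPM in NT5 and 176 and 77.7 CPM in HT5, and at 148, 82.4 and 168 CPM in NT7 and 57, 78.6 and 66.4 CPM in HT7. The day 5 groups each held a high replicate 1, and on day 7 the highest HT7 sample was just below the lowest NT7 sample. The log2FC was -0.59 ± 0.38, 0.17 ± 0.42 and -0.98 ± 0.38 on days 3, 5 and 7, with an adjusted p of 0.0458 on day 7. That call was lost on leaving out any of 5 of the 6 samples of day 7, all but replicate 2 of NT7, and the adjusted p then rose to as much as 0.154.

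IRF7, which drives the production of type I interferons, was at 76.1, 82.6 and 76.6 CPM in NT3 and 79.7, 58.1 and 101 CPM in HT3. It was at 50.7, 58.1 and 43.8 CPM in NT5 and 73.2 and 69.3 CPM in HT5, and at 83.1, 43.6 and 58.1 CPM in NT7 and 85.5, 72.1 and 83.0 CPM in HT7. HT5 was above NT5 without overlap, and NT7 spread widely. The log2FC was 0.02 ± 0.21, 0.49 ± 0.23 (adjusted p = 0.122) and 0.38 ± 0.21 (adjusted p = 0.15) on days 3, 5 and 7. IRF7 passed on day 7 where replicate 1 of NT7 was left out, with a log2FC of 0.66 and an adjusted p of 0.0164.

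The 6 regulators that attach ubiquitin, ISG15 or ADP-ribose did not pass on any day with the main settings. They were the ubiquitin ligases TRIM21, TRIM25, HERC6 and DTX3L and the ADP-ribose proteins PARP9 and PARP14, with median log2FC of -0.14, 0.28 and -0.33 on days 3, 5 and 7. PARP14 on day 5 (0.58 ± 0.24, adjusted p = 0.0781) and DTX3L on day 7 (-0.39 ± 0.16, adjusted p = 0.0548) and HERC6 on day 7 (-0.60 ± 0.25, adjusted p = 0.0636) came nearest the threshold. DESeq2 placed DTX3L and HERC6 below it on day 7 (adjusted p = 0.0431 and 0.0447). HERC6 was also below it on day 7 with the replicate number as a block (-0.59, adjusted p = 0.0462) and in the fit of the day 7 samples alone (adjusted p = 0.0412), and DTX3L with 1 entry per locus (-0.40, adjusted p = 0.0496) and with DESeq2 size factors in edgeR (-0.39, adjusted p = 0.0494). In fits without 1 sample on day 7, DTX3L passed without replicate 2 of HT7 (-0.54) or of NT7 (-0.46), HERC6 without replicate 2 of NT7 (-0.73) and TRIM21 without replicate 3 of HT7 (-0.52).

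ISG15, a ubiquitin-like protein that is both attached to proteins and secreted, was at 63.7, 43.5 and 46.2 CPM in NT3 and 50.5, 17.1 and 56.5 CPM in HT3. It was at 24.7, 30.7 and 28.7 CPM in NT5 and 40.9 and 40.3 CPM in HT5, and at 53.3, 19.4 and 29.2 CPM in NT7 and 43.0, 43.1 and 36.0 CPM in HT7. HT5 was above NT5 without overlap, and on days 3 and 7 the samples overlapped. The log2FC was -0.31 ± 0.37, 0.53 ± 0.41 (adjusted p = 0.337) and 0.26 ± 0.37 on days 3, 5 and 7, none of which passed.

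CXCL10, CXCL9 and CXCL11 are chemokines that attract activated T and NK lymphocytes through CXCR3. CXCL10 was at 6.5, 5.95 and 12 CPM in NT3 and 10.3, 5.04 and 43.7 CPM in HT3. It was at 33.5, 4.07 and 3.77 CPM in NT5 and 77.2 and 49.1 CPM in HT5, and at 31.2, 3.37 and 27.5 CPM in NT7 and 11.7, 31.9 and 32.6 CPM in HT7. Both HT5 samples exceeded all NT5 samples, of which replicate 1 was far above the others. The log2FC was 1.27 ± 0.93, 2.20 ± 0.99 (adjusted p = 0.103) and 0.30 ± 0.90 on days 3, 5 and 7. Without replicate 1 of NT5, CXCL10 passed on day 5 with a log2FC of 4.01 (adjusted p = 0.0119), as did OAS2 with 1.79 (adjusted p = 0.0459).

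CXCL9 and CXCL11 were low in most samples and high in the same few. CXCL9 was at 27.5 CPM in replicate 1 of NT5, 10.9 CPM in replicate 1 of HT5 and 7.29 CPM in replicate 3 of NT7, and between 0.0577 and 1.98 CPM in the other 14. CXCL11 reached 6.66, 7.22 and 3.80 CPM in these samples and 2.67 CPM in replicate 1 of NT7, against 0.0577 to 2.04 CPM elsewhere. The adjusted p of both was above 0.05 on every day, with SE of the log2FC from 1.31 to 1.66. With the replicate number as a block, CXCL9 was lower on day 7 (-2.87, adjusted p = 0.0416). DESeq2 gave no adjusted p for CXCL9, which is left out of its counts.

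The 2 antigen presentation members did not pass either. B2M, the light chain of MHC class I, was at 509, 396 and 682 CPM in NT3 and 584, 354 and 623 CPM in HT3. It was at 1218, 587 and 637 CPM in NT5 and 612 and 472 CPM in HT5, and at 592, 579 and 818 CPM in NT7 and 446, 648 and 394 CPM in HT7. The groups of each day overlapped, and replicate 1 of NT5 stood above all other samples. The log2FC was -0.02 ± 0.30, -0.59 ± 0.34 and -0.42 ± 0.30 on days 3, 5 and 7. TAP1, the peptide transporter of MHC class I loading, was also highest in replicate 1 of NT5, at 247 CPM against 85.2 and 102 CPM in the other NT5 samples.

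In replicate 1 of NT5, IRF1, IRF8, TAP1, B2M and CXCL9 were therefore all at the highest level of the 17 samples. Its T and NK lymphocyte markers summed to 63.3 CPM, the highest of the 17 samples, against 19.7 and 19.2 CPM in the other NT5 samples and 10.4 to 36.9 CPM elsewhere. Its macrophage and monocyte markers summed to 2129 CPM, against 1146 and 1075 CPM in the other NT5 samples, and without CD68 to 1298 CPM, the highest of the 17 samples. Of the 14 macrophage and monocyte markers, 6 were at their highest there, CSF1R and C1QC among them, and 8 were not, CD68 and MARCO among them. Its MX1 and ISG15 levels were the lowest of NT5, at 248 and 24.7 CPM, so not every member was high in it. IFNG, the gene of interferon gamma, had 2 counts in it, and 0 to 9 counts in each of the 17 samples, too few to be tested in edgeR. The part of these cells in the levels was not tested.

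**Figure D4:**
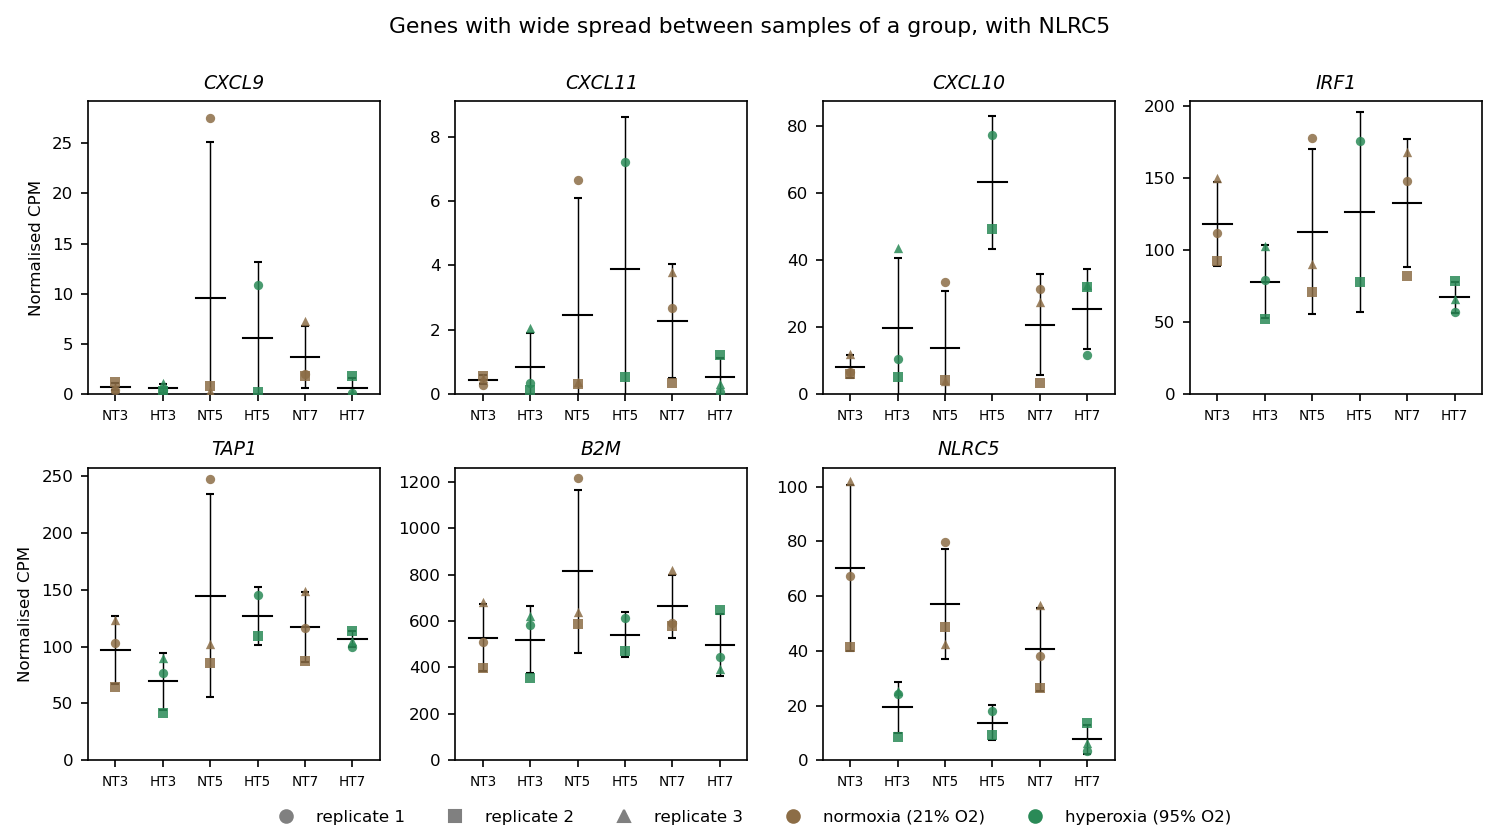
Normalised CPM per sample of CXCL9, CXCL11, CXCL10, IRF1, TAP1, B2M and NLRC5, drawn as points by replicate with group means and standard deviations. Replicate 1 of NT5 is the highest sample for CXCL9 (27.5 CPM), TAP1 (247 CPM) and B2M (1218 CPM), while NLRC5 is below normoxia in every hyperoxia group.

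Whether the response differed between days was tested as the difference of the hyperoxia effects. CMPK2 was the only member that passed in any of the 3 differences, and its log2FC was 1.13 lower on day 7 than on day 3 (difference -1.13 ± 0.27, adjusted p = 0.0106), where 20.5% of all genes passed in either direction and 11% lower. DESeq2 also called 1 member lower, against 13.2% of all genes. The call was kept in all 12 fits that left out 1 sample of these days, with differences from -1.33 to -0.98. For IFI44 and IFI44L the difference was -0.82 ± 0.36 and -0.99 ± 0.45 (adjusted p = 0.12 and 0.131), and both passed on leaving out replicate 2 of HT7, with -1.20 and -1.58.

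Between days 5 and 3, 25 of 31 members had a larger log2FC on day 5, 80.6% against 48.8% of all genes, with a median difference of 0.47. In edgeR 0 members passed, against 1.46% of all genes, and in DESeq2 0, against 3.31% of all genes higher and 3.9% lower. At an unadjusted p under 0.05 there were 4 (MX2, PARP14, RSAD2 and TRIM25), 12.9% of members against 20.3% of all genes. RSAD2, which passed on day 5 and not on day 3, had a difference of 1.16 ± 0.49 (adjusted p = 0.196), so a change between these days was not shown. Between days 7 and 5, 29 of 31 members had a smaller log2FC on day 7 (93.5%, against 50.2% of all genes), with a median difference of -0.69. In edgeR 0 members passed and 0 of all genes (0.0%), and 6 members were at an unadjusted p under 0.05 (19.4%, against 8.56% of all genes). DESeq2 also called 0 members, against 2 genes higher (0.0154%) and 26 lower (0.2%). The 3 differences share samples, so they are not independent of each other.

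Other genes of the interferon pathway were taken from lists of 141 symbols, of which 84 were found and 83 tested. On day 3, 1 of 83 passed (1.20%, against 1.03% of all genes), on day 5, 9 rose and 9 fell (21.7%, against 31.3%), and on day 7, 8 rose and 24 fell (38.6%, against 47.4%). In DESeq2, 1 was higher and 2 were lower on day 3 (3.80% of the 79 with an adjusted p, against 4.20% of all genes), 11 were higher and 11 lower on day 5 (26.5%, against 34.4%), and 8 were higher and 24 lower on day 7 (38.6%, against 46.2%). Their median log2FC was -0.10, -0.02 and -0.17 on days 3, 5 and 7. Of 18 symbols in the ligand list, IFNG and TNF were found, and TNF is not an interferon. Only TNF had enough counts for the edgeR test, and the type I and type III interferons were not analysed here.

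All 6 receptor genes were tested. IFNAR1, a chain of the type I receptor, was at 284, 280 and 258 CPM in NT3 and 198, 212 and 234 CPM in HT3. It was at 220, 239 and 249 CPM in NT5 and 124 and 89.1 CPM in HT5, and at 234, 282 and 253 CPM in NT7 and 115, 106 and 95.9 CPM in HT7. Hyperoxia was below normoxia without overlap on every day. The log2FC was -0.35 ± 0.12 on day 3 (adjusted p = 0.183), -1.15 ± 0.14 on day 5 (adjusted p = 0.000128) and -1.28 ± 0.13 on day 7 (adjusted p = 4.13e-06).

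IFNLR1, the chain particular to the type III receptor, was chosen for mention after its values were seen. It was at 48.2, 46.8 and 60.6 CPM in NT5 and 35.1 and 31.5 CPM in HT5, and at 52.2, 44.1 and 47.8 CPM in NT7 and 27.6, 29.1 and 30.9 CPM in HT7. The hyperoxia samples of both days were the lower ones, and the log2FC was -0.64 ± 0.17 on day 5 (adjusted p = 0.0111) and -0.72 ± 0.15 on day 7 (adjusted p = 0.00128). The day 5 call was lost with the replicate number as a block and without replicate 2 of HT5. In the fits without 1 sample of day 5, its log2FC ran from -0.72 to -0.51.

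IFNGR2, the signalling chain of the interferon gamma receptor, rose on day 7, from 26.5, 30.0 and 27.3 CPM in NT7 to 61.6, 33.0 and 54.1 CPM in HT7. Replicate 2 of HT7 was near normoxia, and the log2FC was 0.83 ± 0.27 (adjusted p = 0.02), a call kept in 2 of 6 fits without 1 sample. IFNGR1, the binding chain, did not pass (0.11 ± 0.10, -0.11 ± 0.12 and -0.01 ± 0.10 on days 3, 5 and 7). IFNAR2, which shares its locus and counts with IL10RB, had -0.24 ± 0.18, -0.39 ± 0.21 and -0.28 ± 0.18 and did not pass. Endothelial markers were also lower on day 7, 6 of 8 (75.0%, against 23.7% of all genes), with sums of 928 to 1299 CPM in HT7 and 2337 to 2748 CPM in NT7, and alveolar type 1 markers too, 4 of 6 (66.7%), with sums of 1984 to 2635 CPM and 6756 to 7605 CPM. Their part in the receptor levels was not tested.

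**Figure D5:**
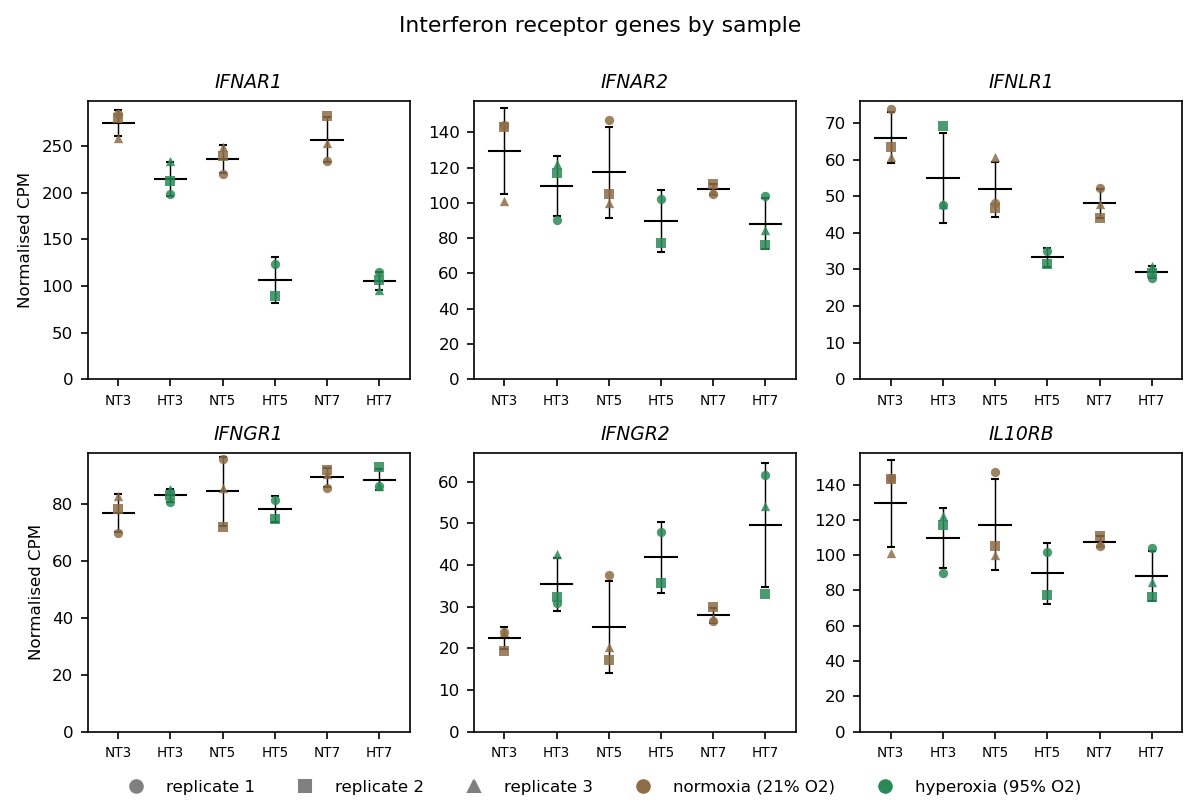
Normalised CPM per sample of the 6 interferon receptor genes, with points by replicate, group means and standard deviations. IFNAR1 and IFNLR1 are below normoxia on days 5 and 7, IFNGR2 is above it on day 7, and IFNAR2 and IL10RB show the same values because they share a locus.

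Downstream of the receptors, the kinases JAK1 and TYK2 did not pass on any day. TYK2 shares its locus and counts with RAVER1 and ICAM3, so its values cannot be given to TYK2 alone. JAK2, the kinase bound to IFNGR2, was chosen for mention after its values were seen. It was at 62.2, 41.9 and 48.8 CPM in NT5 and 79.1 and 98 CPM in HT5, and at 55.6, 43.8 and 58.1 CPM in NT7 and 90.9, 70.8 and 94.4 CPM in HT7, without overlap. JAK2 rose by a log2FC of 0.80 ± 0.18 on day 5 (adjusted p = 0.00517) and 0.70 ± 0.17 on day 7 (adjusted p = 0.0032), against 0.14 ± 0.17 on day 3. Without replicate 2 of HT5 the day 5 call was lost (adjusted p = 0.0978). NLRC5, the transactivator of MHC class I genes, was at 67.4, 41.3 and 102 CPM in NT3 and 24.4, 8.70 and 25.3 CPM in HT3. It was at 79.9, 48.9 and 42.6 CPM in NT5 and 18.2 and 9.31 CPM in HT5, and at 38.2, 26.6 and 56.8 CPM in NT7 and 3.23, 13.5 and 6.15 CPM in HT7. Every hyperoxia sample was below every normoxia sample of its day. The log2FC was -1.85 ± 0.51 (adjusted p = 0.0965), -2.06 ± 0.61 (adjusted p = 0.0188) and -2.42 ± 0.54 (adjusted p = 0.00192) on days 3, 5 and 7. In fits without 1 sample, it ran from -2.62 to -1.66 on day 5 and from -3.09 to -2.05 on day 7. DESeq2 placed the day 3 difference below the threshold (adjusted p = 0.0279). The day 5 call was lost without replicate 2 of HT5 or replicate 1 of NT5 (adjusted p = 0.191 and 0.0501).

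The NLRC5 targets B2M and TAP1 did not pass on any day, as given above. On day 7, T and NK markers were lower for 9 of 15 tested (60.0%, against 23.7% of all genes) and higher for CD8B, with sums of 13.1 to 16.8 CPM in HT7 and 16.2 to 36.9 CPM in NT7. The part of lymphocytes in the level of NLRC5 was not tested.

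Among the other interferon-induced genes, 6 of 53 rose on day 5 (11.3%, against 15.9% of all genes) and 5 fell (9.43%, against 15.4%). On day 7, 4 rose (7.55%, against 23.7%) and 15 fell (28.3%, against 23.7%). ISG20, an RNA exonuclease, was the gene with the largest rise in the lists on every day, with 7.28, 8.52 and 6.94 CPM in NT3 and 36.6, 25.0 and 32.5 CPM in HT3. It was at 8.91, 9.23 and 8.16 CPM in NT5 and 79.1 and 172 CPM in HT5, and at 8.75, 7.76 and 7.41 CPM in NT7 and 170, 102 and 150 CPM in HT7. Hyperoxia and normoxia were far apart on all days, with log2FC of 2.05 ± 0.26, 3.84 ± 0.28 and 4.14 ± 0.27 (adjusted p = 0.00177, 2.24e-06 and 2.36e-07). ISG20 shares its locus and counts with AEN, a target of p53, so these counts cannot be given to ISG20 alone.

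SAMHD1, which depletes nucleotides, and PLSCR1, a membrane protein that amplifies the interferon response, rose on days 5 and 7. SAMHD1 was at 240, 97.8 and 134 CPM in NT5 and 546 and 448 CPM in HT5, and at 231, 152 and 187 CPM in NT7 and 490, 323 and 361 CPM in HT7. PLSCR1 was at 55.4, 49.1 and 51.5 CPM in NT5 and 129 and 152 CPM in HT5, and at 60.1, 53.0 and 61.6 CPM in NT7 and 155, 112 and 160 CPM in HT7. None of these groups overlapped. The log2FC of days 5 and 7 was 1.66 ± 0.30 and 1.04 ± 0.27 for SAMHD1 (adjusted p = 0.00121 and 0.0059), and 1.44 ± 0.16 and 1.29 ± 0.14 for PLSCR1 (adjusted p = 6.23e-05 and 1.05e-05).

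OASL, a relative of OAS1, was at 6.06, 3.63 and 2.43 CPM in NT5 and 13.5 and 10.7 CPM in HT5. Its log2FC was 1.58 ± 0.54 (adjusted p = 0.0376). The call was lost in 4 of 5 fits without 1 sample, and with the replicate number as a block. IFI27L2 had 11, 22 and 20 counts in NT5 and 0 and 1 in HT5, which is too few in HT5 for a fold. Its counts in the normoxia samples of day 3 were 1, 44 and 9, so it also varied within a group.

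TNFSF10 and DDX60 fell on day 7. TNFSF10, the death ligand TRAIL, was at 324, 401 and 435 CPM in NT7 and at 34.7, 168 and 77.0 CPM in HT7, and DDX60, a helicase that aids RNA sensing, at 59.4, 44.0 and 39.4 CPM in NT7 and 8.08, 25.0 and 15.9 CPM in HT7. In both genes replicate 1 of HT7 was lowest, as it was for 19 of the 31 members. The log2FC was -2.05 ± 0.43 for TNFSF10 (adjusted p = 0.00126) and -1.54 ± 0.32 for DDX60 (adjusted p = 0.00124), and both passed in all 6 fits without 1 sample of day 7. The log2FC in these fits ran from -2.78 to -1.66 for TNFSF10 and from -1.97 to -1.22 for DDX60, with the largest falls where replicate 2 of HT7 was left out.

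The day 5 calls rested on 2 hyperoxia samples and were also lost without single normoxia samples. Without either HT5 sample, 0 of the 5 members that passed on day 5 did so. IFIT3 and RSAD2 passed in 0 of the 5 fits without 1 sample (adjusted p from 0.062 to 0.174 and from 0.0593 to 0.157). CMPK2 and SAMD9 passed in 1 of the 5, and their calls were lost also without replicate 2 or 3 of NT5 (adjusted p up to 0.238 and 0.125 over the fits). DDX58 passed in 2 of the 5, and its call was lost also without replicate 3 of NT5 (adjusted p up to 0.0909). Leaving out 1 sample gave between 0 and 4 higher and between 0 and 1 lower. Without replicate 1 of HT5, which had the raised skeletal muscle markers, the day 5 log2FC was 1.06 for RSAD2, 0.85 for IFIT3, 0.98 for DDX58, 0.56 for SAMD9 and -0.77 for CMPK2 (adjusted p = 0.0879, 0.174, 0.051, 0.111 and 0.0536). On the same day, 2 of 14 macrophage markers were higher (14.3%, against 15.9% of all genes) and 0 lower. Of 8 endothelial markers, 5 were lower (62.5%, against 15.4% of all genes) and 1, VWF, was higher, with sums of 1283 to 1368 CPM in HT5 and 2185 to 2735 CPM in NT5, and of 6 alveolar type 1 markers 4 were lower (66.7%), with sums of 2312 to 3956 CPM and 5903 to 7074 CPM. The part of these cells in the day 5 results was not tested. On day 7, CMPK2, IFI44, IFI44L, IRF8 and XAF1 passed in all 6 fits without 1 sample.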

How the data were processed

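RNA-seq of right lung homogenates from 17 preterm rabbit pups was analysed from raw counts per locus that the authors deposited without normalization, from stranded poly(A) paired-end libraries. The submitters' processing notes name STAR 2.7.10a, FastQC and the OryCun2.0 assembly. The counting program is not given in the sources used here. The 44 rows without a gene name carry an Ensembl identifier and were kept. A locus with several genes is listed once per gene with the same counts.

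Genes were filtered with filterByExpr (13142 tested, 685 not tested), TMM-normalised and fitted in edgeR 4.0.16 (R 4.3.3, prior count 0.125) as 6 group means over all 17 samples, with Benjamini-Hochberg adjustment over all genes tested. DESeq2 1.42.0 was an alternative. Other alternatives were size factors, no filter, prior count, 1 entry per locus, samples of the days compared, replicate block, a stricter threshold and leaving out each sample. Tables and figures used pandas 2.3.3 and matplotlib 3.10.9 in Python 3.11.15. The members and gene lists were chosen with earlier results of these data known. Values per sample are given for members that passed and for defining genes. For other pathway genes, the 3 largest rises and falls per day among those that passed and 10 further genes are named where found. Some genes are not reported here.

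Same-numbered samples deviated together from their group means on day 3 (correlations 0.166, 0.131 and 0.199) and on day 5 (0.264 and 0.141). On day 7 the correlations were 0.174, 0.109 and 0.0695. The main fit did not pair samples by these numbers on any day, and the replicate block was an alternative. The labels do not say what the numbers mark. With the replicate block 0 members passed on day 3.

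On simulated data, changes of 1 on the log2 scale were recovered for 72%, 50% and 56% of 100 genes on days 3, 5 and 7 among 13008, 13009 and 12995 genes, and changes of 2 for 95%, 87% and 94%.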

Additional observations from a re-analysis of the deposited data

Results flagged for a closer look

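The hyperoxia effect on CMPK2 differed between days. Its log2FC was -0.37 ± 0.19 (SE) on day 3 and -1.51 ± 0.20 on day 7, and the test of the difference itself gave -1.13 ± 0.27 (edgeR, adjusted p = 0.0106), with all hyperoxia samples lower than all normoxia samples on both days.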

How the results depend on the processing

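No named gene that passed changed direction, but 2 medians over the members changed sign, that of day 3 (0.06 without replicate 2 of HT3) and that of the difference of days 7 and 3 (0.04 without replicate 3 of HT3). The day 5 calls depended most on the processing: 0 members were higher with the replicate block, 0 were lower with the samples of the days compared only, and 0 were higher and 0 lower at an adjusted p under 0.01. Leaving out 1 sample gave 0 to 4 higher and 0 to 1 lower on day 5. On day 7 it gave 0 to 1 higher and 5 to 9 lower, and for the difference of days 7 and 3 1 to 3 lower. On day 7, 1 member (DDX58) was higher with the samples of the days compared only. At an adjusted p under 0.01, 0 members passed in the difference of days 7 and 3. Median log2FC without 1 sample ranged from -0.37 to 0.06 on day 3, from 0.25 to 0.46 on day 5 and from -0.40 to -0.17 on day 7. The median differences ranged from 0.28 to 0.69 (days 5 and 3), from -0.40 to 0.04 (days 7 and 3) and from -0.84 to -0.38 (days 7 and 5), the last without replicate 1 of HT5. Same-numbered samples correlated at 0.264 and 0.141 on day 5 and 0.174, 0.109 and 0.0695 on day 7. On day 7, and also on day 3, all 6 samples correlated best with their own number. This is a hint from the data, not the design. The block left 1 member lower on day 5 (IRF8, -0.74, adjusted p = 0.0377, in place of CMPK2), and 8 lower on day 7, HERC6 and CXCL9 beside the 6 that passed without it. The day 5 calls of OASL and IFNLR1 were lost with it (adjusted p = 0.111 and 0.0606). The cause of these changes was not tested, beyond that 2 HT5 samples leave 1 when a sample is removed, whose spread is then assumed to be that of the other groups. IFNG had at most 9 counts in a sample and was left out by the count filter.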
